A study of Mus musculus with 8 samples.

Results

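The genes described here are 30 genes of sterol balance, 13 known targets of the liver X receptors (LXR) and 17 genes of cholesterol synthesis and its regulator SREBP2. They were taken by symbol from the 24786 gene symbols of the files, and each of the 30 had a row. RNA was measured in 8 libraries from macrophages of mouse liver, with 2 libraries in each of 4 groups. Either subset, resident Kupffer cells or macrophages derived from monocytes (MoM), was taken from dnTGFβRII mice (TG) and from wild-type mice (WT), and the strain of all groups is C57BL/6. In TG mice, as background, the Cd4 promoter drives a TGF-β receptor II that is dominant-negative, so that the altered cells are T cells and not the macrophages, and they are used as a model of cholangitis. The labels give neither age nor number of animals, nor any pooling. As nothing states that the replicates are separate animals, p-values measure the spread between these libraries, which may be technical.

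Cholesterol in a macrophage is held in balance by opposed programmes. When sterols are plentiful, oxysterols and desmosterol bind the nuclear receptors LXRα and LXRβ, which pair with retinoid X receptors and switch on genes for cholesterol efflux, lipoprotein handling and fatty acid desaturation. When sterols are scarce, SCAP carries SREBP2 to the Golgi, where it is cut, and the freed fragment switches on the enzymes of cholesterol synthesis; INSIG proteins hold it back. Kupffer cells are known for high LXRα, which belongs to their identity as resident macrophages.

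Both programmes act through short DNA elements near the start of genes. RefSeq promoter windows (GRCm38.p6, 250 bases before to 50 bases after a start) were at hand for 20 of the 30 genes, 7 LXR targets and 13 synthesis genes. The LXR element was searched on both strands as the half-sites GGTNA and GGTCA in the same direction, with 5 bases between them. It was found in 2 of the 7 LXR targets, Abca1 and Srebf1, in 0 of the 13 synthesis genes and in 0.189% of the 11653 tested genes with a window. The matches are shown because both genes are classical LXR targets, with the element in capitals. They are read on the gene's own strand, where the element appears as its reverse complement.
Abca1, chr4:53159896-53160145, minus strand, build GRCm38.p6: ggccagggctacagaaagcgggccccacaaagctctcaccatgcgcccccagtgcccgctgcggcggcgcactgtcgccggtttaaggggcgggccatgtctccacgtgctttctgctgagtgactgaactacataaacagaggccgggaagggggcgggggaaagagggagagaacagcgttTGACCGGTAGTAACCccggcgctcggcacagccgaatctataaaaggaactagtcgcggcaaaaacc
Srebf1, chr11:60210632-60210661, minus strand, build GRCm38.p6: gacgacagTGACCGCCAGTAACCccagcgc

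The Abca1 element lay 67 to 53 bases before the start, and the Srebf1 element lay 182 to 168 bases before the third of its 3 annotated starts. For the synthesis genes the box CCAAT, bound by NF-Y, a partner of SREBP2, was searched on both strands, where it can read as ATTGG. All 13 synthesis genes with a window held it, against 5 of 7 LXR targets and 42.7% of tested genes with a window. In Dhcr7, which has 3 annotated starts, only the third window held it. The GC box GGGCGG was in 13 of 13 synthesis genes, 6 of 7 LXR targets and 64.0% of tested genes, and the SREBP site CACNCCAC was in 2 of 13, 0 of 7 and 7.5%. The members were chosen for their known control, so these shares are a description, and a match is not a measured binding site. The stretches below, with the box or site in capitals, belong to Srebf2, Cyp51 and Idi1, whose RNA differed between the subsets, and to Hmgcs1, which carries 1 of the 2 SREBP sites. The Cyp51 and Idi1 stretches lie before the RefSeq start but inside the gene as GENCODE places it, since its starts lie farther upstream.
Srebf2, chr15:82147019-82147180, plus strand, build GRCm38.p6: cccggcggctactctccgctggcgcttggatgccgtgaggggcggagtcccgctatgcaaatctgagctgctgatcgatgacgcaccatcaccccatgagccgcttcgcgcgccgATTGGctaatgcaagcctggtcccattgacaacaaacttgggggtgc
Cyp51, chr5:4104710-4104739, minus strand, build GRCm38.p6: ccgctgtccgccaCCAATctggtcctgaga
Idi1, chr13:8885548-8885577, plus strand, build GRCm38.p6: ttgcctccagctgATTGGcgagcccgggca
Hmgcs1, chr13:119690189-119690248, plus strand, build GRCm38.p6: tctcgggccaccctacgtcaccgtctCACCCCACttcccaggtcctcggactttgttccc

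Libraries held 26190194 to 30308132 counts, and each of the 30 genes passed the filter on low counts. Levels are CPM, the count of a gene relative to the total of its library with TMM scaling between libraries, and they are compared between libraries for 1 gene at a time, since counts also depend on gene length. The labelled subsets were checked with Clec4f, a lectin of Kupffer cells, and Ccr2, the chemokine receptor of monocytes. Clec4f stood at 2736 to 12314 CPM in the 4 Kupffer libraries and at 33.3 to 125 CPM in 3 MoM libraries, but at 3599 CPM in MoM WT replicate 1. Ccr2 stood at 3.88 to 13.1 CPM in Kupffer cells and at 128 to 460 CPM in MoM. The 10 Kupffer cell markers summed to 11197 to 27595 CPM in Kupffer libraries and to 453 to 8141 CPM in MoM, with MoM WT replicate 1 the highest MoM library. Dendritic cell markers summed to 63.2 to 274 CPM in Kupffer libraries and 1463 to 2466 CPM in MoM, with Flt3, a growth factor receptor of dendritic cells, at 1.05 to 17.4 and 199 to 313 CPM. All MoM libraries lay above all Kupffer libraries in 6 of these 8 markers, against 14.8% of all genes. The other 2 overlapped, Clec9a at 31.6 to 63.9 and 39.4 to 120 CPM and Xcr1 at 1.61 to 28.1 and 4.59 to 65.0 CPM. The sums were 144 to 459 and 798 to 4702 CPM for monocyte markers, 20.1 to 37.9 and 93.1 to 218 CPM for B cell markers, and 1.94 to 32.2 and 57.1 to 3663 CPM for neutrophil markers. The endothelial markers summed to 7571 CPM in Kupffer TG replicate 2 and 4994 CPM in MoM WT replicate 1, with Kdr, a VEGF receptor of endothelial cells, at 1107 and 946 CPM. Alb, the hepatocyte gene of albumin, ranged from 5.37 CPM in Kupffer TG replicate 1 to 654 CPM in Kupffer TG replicate 2, and Ngp, a neutrophil granule gene, reached 1584 CPM in MoM TG replicate 2. In bulk RNA, fewer cells of a type and less RNA per cell cannot be told apart.

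**Figure D1:**
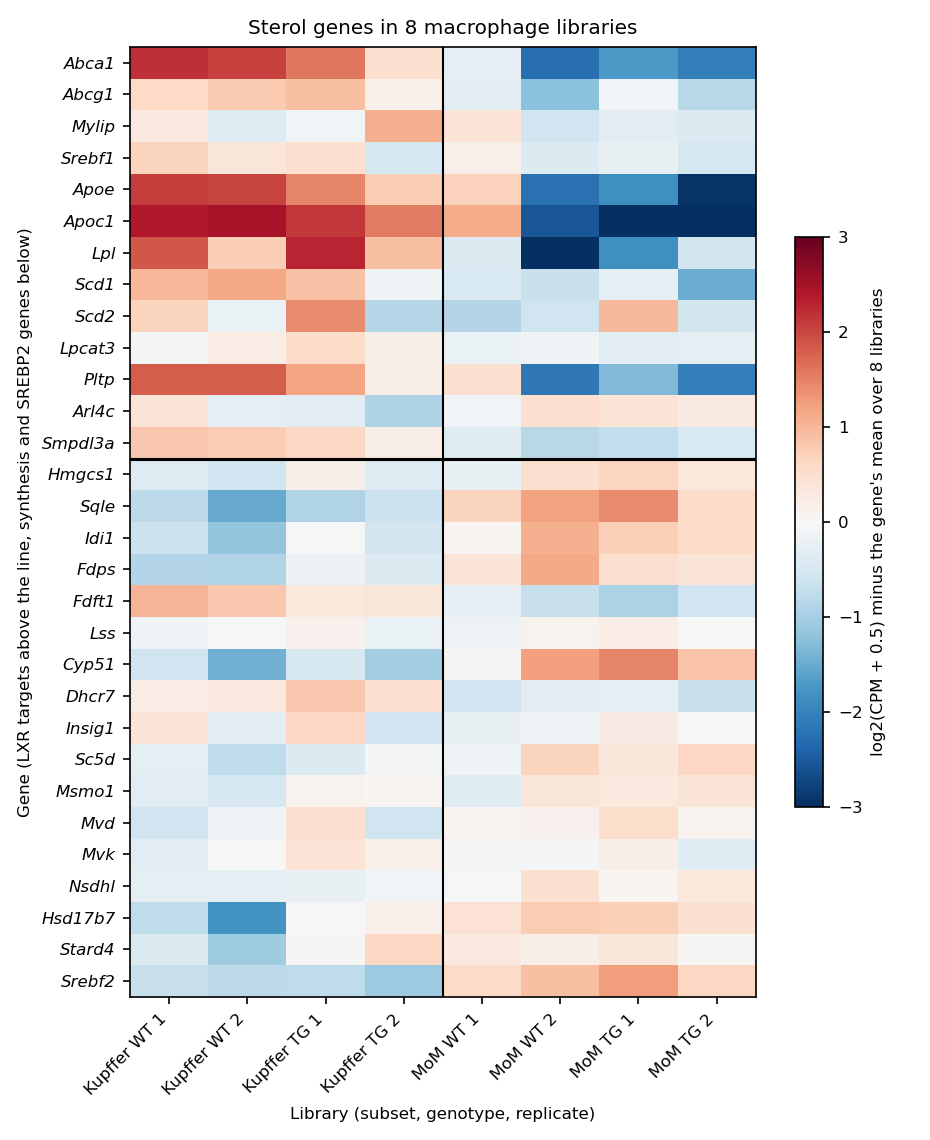
Colour map of the 30 genes (rows) in the 8 libraries (columns), as log2(CPM + 0.5) minus the gene's mean over the libraries. The upper block of 13 LXR targets is mostly red in Kupffer libraries and blue in MoM, the lower block of 17 genes mostly the reverse, and MoM WT replicate 1 is paler than the other MoM libraries in most of them.

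Between the subsets the 2 lists went mostly opposite ways. The subset comparison averaged MoM against Kupffer cells over both genotypes, with 4 libraries a side, and 15 of the 30 genes passed at an adjusted p below 0.05 (edgeR's quasi-likelihood test, Benjamini-Hochberg adjustment over 15254 genes). Of the 13 LXR targets 8 fell in MoM and 0 rose, with 12 of 13 log2 fold changes below 0 and a median of -1.196. Of the 17 synthesis genes 5 rose and 2 fell, with 13 of 17 above 0 and a median of 0.46. Over all genes tested 10.6% rose, 8.05% fell and the median was 0.087. All 4 MoM libraries lay below all 4 Kupffer libraries in 8 LXR targets and 2 synthesis genes, against 11.4% of all genes. All 4 lay above in 0 LXR targets and 7 synthesis genes, against 14.8% of all genes. With 1 library left out the count of 15 moved to 9 and 16 when Kupffer TG replicate 1 or 2 was dropped, 0 for either replicate of Kupffer WT, 1 and 3 for MoM TG replicate 1 or 2, and 15 and 9 for MoM WT replicate 1 or 2. Markers of some other cells moved with the same comparison. In MoM 5 of 8 dendritic cell, 4 of 5 B cell, 6 of 7 tested neutrophil, 3 of 5 cholangiocyte and 8 of 10 monocyte markers rose. There 7 of 10 Kupffer cell markers and 1 of 8 endothelial markers fell. Of 6 T cell, 4 NK cell, 9 hepatocyte and 7 stellate cell markers 0 passed. The part of such cells in the levels of the sterol genes was not tested. The median of the LXR targets stayed between -1.47 and -1.09 in these fits and that of the synthesis genes between 0.42 and 0.66.

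**Figure D2:**
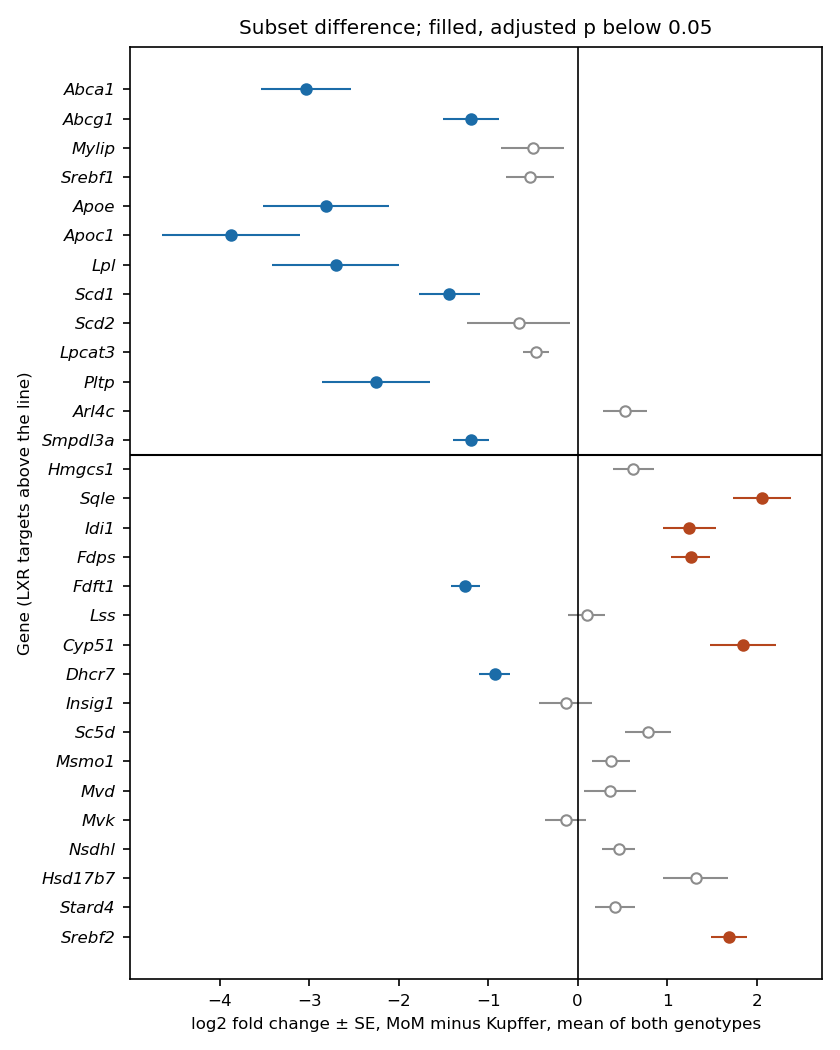
Log2 fold change of each gene between MoM and Kupffer cells, mean of both genotypes, with bars of 1 SE (4 libraries per subset); filled points passed at an adjusted p below 0.05 and open points did not. Apoc1, at -3.87, lies farthest to the left and Sqle, at 2.06, farthest to the right.

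The mean log2(CPM + 0.5) over the 13 LXR targets was 8.95 and 8.70 in WT Kupffer libraries, 8.82 and 8.05 in TG Kupffer libraries, 7.81 and 6.57 in WT MoM, and 6.97 and 6.65 in TG MoM. The same mean over the 17 synthesis genes was 4.08 and 3.80, 4.41 and 4.17, 4.43 and 4.84, and 4.85 and 4.61. The Kupffer libraries were the 4 highest for LXR targets and the 4 lowest for synthesis genes. The LXR mean minus the synthesis mean was 4.87, 4.90, 4.41 and 3.88 in Kupffer libraries and 3.37, 1.73, 2.12 and 2.04 in MoM, in the same order. Kupffer TG replicate 2 was the lowest of the Kupffer libraries and MoM WT replicate 1 the highest of the MoM, and these were also the libraries with the highest endothelial sums. Replicates of a group differed with a pooled SD of 0.53 for the LXR mean and 0.21 for the synthesis mean.

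**Figure D3:**
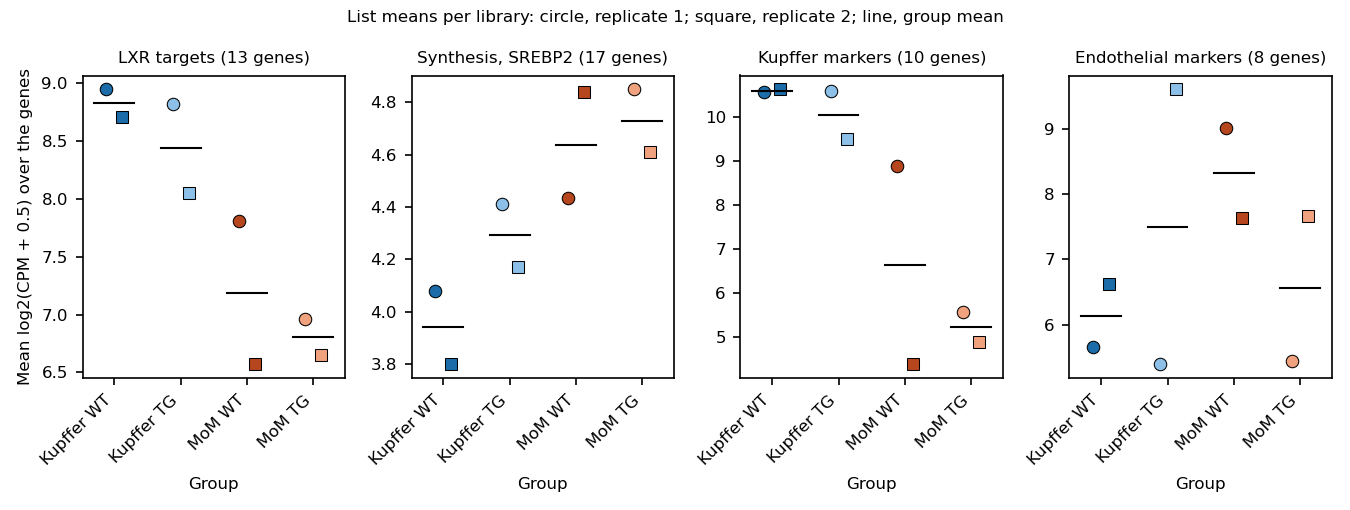
Mean log2(CPM + 0.5) per library over the 13 LXR targets, the 17 synthesis and SREBP2 genes, 10 Kupffer cell markers and 8 endothelial markers; circles are replicate 1, squares replicate 2 and lines group means, and the axes do not start at 0. LXR means run from 8.95 down to 6.57 and synthesis means from 3.80 up to 4.85, and MoM WT replicate 1 stands above the other MoM libraries in LXR targets and Kupffer cell markers.

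Of the genes tied to cholesterol efflux, Abca1 and Abcg1 fell in MoM and Arl4c did not. Abca1 (chr4:53030787-53159895, minus strand), the transporter that loads cholesterol onto apolipoprotein A-I, had 1196 and 1098 CPM in WT Kupffer cells, 786 and 365 CPM in TG Kupffer cells, 221 and 54.3 CPM in WT MoM, and 79.1 and 63.6 CPM in TG MoM. No MoM library reached the lowest Kupffer library. Abca1 fell in MoM by 3.03 ± 0.51 on the log2 scale (SE, adjusted p = 0.0166). Abcg1 (chr17:31057675-31117988, plus strand), which passes cholesterol to high-density lipoprotein, had 368 and 422 CPM in WT and 454 and 270 CPM in TG Kupffer cells, then 196 and 103 CPM in WT and 228 and 137 CPM in TG MoM. Its subsets did not overlap either, and its log2 fold change was -1.19 ± 0.31 (adjusted p = 0.0445). With 1 library left out, the adjusted p ran from 0.00675 to 0.0753 for Abca1 and from 0.0225 to 0.136 for Abcg1. Arl4c, a small GTPase tied to cholesterol export, did not move with the transporters. It had 158 to 392 CPM in Kupffer cells and 284 to 423 CPM in MoM (log2 fold change 0.53 ± 0.25, adjusted p = 0.176). It was the only LXR target of the 13 with a value above 0 in this comparison.

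Genes of lipoproteins and their handling showed wide differences and a split between the WT MoM libraries. Apoe (chr7:19696109-19699188, minus strand), the apolipoprotein that macrophages secrete with cholesterol, stood at 23193 and 22167 CPM in WT Kupffer cells and 15027 and 9250 CPM in TG Kupffer cells. In MoM it stood at 8778 and 1163 CPM in WT and 1536 and 715 CPM in TG. The subsets did not overlap, but MoM WT replicate 1 came close to the lowest Kupffer library. Apoe fell in MoM by 2.81 ± 0.70 on the log2 scale (adjusted p = 0.0392). Its neighbour Apoc1 (chr7:19689481-19692660, minus strand), an apolipoprotein that restrains lipoprotein uptake, had 354 and 367 CPM in WT Kupffer cells, 289 and 197 CPM in TG Kupffer cells, 144 and 10.7 CPM in WT MoM, and 4.48 and 6.04 CPM in TG MoM. Both TG MoM libraries lay below both WT MoM libraries, and the subset change was -3.87 ± 0.77 (adjusted p = 0.0241). Pltp (chr2:164839518-164857711, minus strand), which transfers phospholipids between lipoproteins, had 1434 and 1446 CPM in WT and 933 and 464 CPM in TG Kupffer cells. It had 585 and 92.4 CPM in WT MoM and 163 and 98.1 CPM in TG MoM. MoM WT replicate 1 lay above Kupffer TG replicate 2, so its subsets overlapped, and Pltp fell by 2.25 ± 0.60 on the log2 scale (adjusted p = 0.0471). Lpl (chr8:68880491-68907448, plus strand), lipoprotein lipase, had 1130 and 519 CPM in WT and 1507 and 583 CPM in TG Kupffer cells, against 234 and 38.1 CPM in WT and 85.8 and 213 CPM in TG MoM. Its replicates differed widely in each group, but the subsets stayed apart (log2 fold change -2.70 ± 0.71, adjusted p = 0.0454).

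MoM WT replicate 1 stood at 38.7% of the WT Kupffer mean for Apoe, 40.0% for Apoc1, 40.6% for Pltp and 19.3% for Abca1. The same library had the highest summed Kupffer cell markers of the MoM. Leaving it out moved the log2 fold change to -3.86 for Apoe, -5.30 for Apoc1, -3.19 for Pltp, -3.71 for Abca1 and -3.63 for Lpl. With both this library and Kupffer TG replicate 2 left out they were -4.08, -5.50, -3.47, -4.00 and -3.97 in the same order, and 18 of the 30 genes passed, the 15 included. MoM WT replicate 1 was the MoM library nearest to the Kupffer libraries in these genes, so leaving it out widens the difference whatever the reason. The part that RNA of other cells plays in these levels was not tested, and these fits cannot show it. Pltp shares 495 exonic bases with Ctsa on the other strand. No source used here states the strand setting of the counting, so reads of the pair cannot be told apart there. Ctsa, a lysosomal protease, had 955 to 1584 CPM in Kupffer cells and 399 to 714 CPM in MoM (log2 fold change -1.31 ± 0.26, adjusted p = 0.0241).

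Lipid-modifying LXR targets fell in part. Scd1 (chr19:44394455-44407879, minus strand), the desaturase that makes oleate, had 238 and 264 CPM in WT and 219 and 109 CPM in TG Kupffer cells, and 86.0 and 74.2 CPM in WT and 98.4 and 42.2 CPM in TG MoM. It fell in MoM by 1.43 ± 0.34 on the log2 scale (adjusted p = 0.0351), with no overlap. Its relative Scd2 had 207 and 114 CPM in WT and 352 and 71.6 CPM in TG Kupffer cells, against 70.2 and 86.7 CPM in WT and 258 and 89.0 CPM in TG MoM. The libraries overlapped and the change of -0.66 ± 0.57 did not pass (adjusted p = 0.449). Smpdl3a (chr10:57794335-57811830, plus strand), a phosphodiesterase related to acid sphingomyelinase, was steadier between replicates, at 764 and 746 CPM in WT and 676 and 497 CPM in TG Kupffer cells, then 338 and 243 CPM in WT and 261 and 320 CPM in TG MoM. It fell by 1.196 ± 0.20 on the log2 scale (adjusted p = 0.0168). Lpcat3, which builds polyunsaturated phospholipids, lay at 44.1 to 66.6 CPM in Kupffer cells and 36.4 to 42.3 CPM in MoM. Its libraries did not overlap, but its change of -0.46 ± 0.15 did not pass (adjusted p = 0.0737). Lpcat3 shares 334 exonic bases with Emg1 on the other strand, where reads of the pair cannot be told apart. Emg1 had 25.3 to 33.1 CPM in Kupffer cells and 41.6 to 49.2 CPM in MoM (log2 fold change 0.58 ± 0.14, adjusted p = 0.0378). Srebf1, the gene of SREBP1, had 64.6 to 148 CPM in Kupffer cells and 64.7 to 103 CPM in MoM (-0.53 ± 0.27, adjusted p = 0.207). Mylip, the ubiquitin ligase IDOL that lowers lipoprotein receptors, had 112 to 311 CPM and 95.2 to 192 CPM (-0.50 ± 0.35, adjusted p = 0.352).

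Srebf2 (chr15:82147181-82205379, plus strand), the gene of SREBP2 and the regulator whose upstream sequence is shown above, had the smallest p of the 30 genes. It stood at 107 and 98.6 CPM in WT and 100.4 and 80.2 CPM in TG Kupffer cells, and at 256 and 321 CPM in WT and 408 and 263 CPM in TG MoM. Every MoM library was above every Kupffer library, and Srebf2 rose by 1.69 ± 0.20 on the log2 scale (adjusted p = 0.00899). With 1 library left out its log2 fold change stayed between 1.52 and 1.83 and its adjusted p between 0.00868 and 0.0734. Insig1, which holds SREBP2 back and is itself its target, had 74.0 to 172 CPM in Kupffer cells and 95.8 to 131 CPM in MoM (-0.13 ± 0.30, adjusted p = 0.777). Stard4, a carrier of cholesterol between membranes and an SREBP2 target, had 11.7 to 38.6 CPM and 25.5 to 32.0 CPM (0.41 ± 0.22, adjusted p = 0.236). Insig1 and Stard4 did not pass where Srebf2 did. Of the enzymes described below, Sqle, Cyp51, Fdps and Idi1 rose, and Fdft1 and Dhcr7 fell.

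In the early, prenyl part of the pathway, 2 of the 5 enzymes among the 30 genes rose, where 10.6% of all genes rose. Pmvk, an enzyme of the same part that is not among the 30, rose too and is given with the other enzymes. Idi1 (chr13:8885501-8892451, plus strand), isopentenyl diphosphate isomerase, had 9.98 and 6.65 CPM in WT and 15.8 and 10.5 CPM in TG Kupffer cells, and 16.4 and 33.7 CPM in WT and 26.2 and 23.2 CPM in TG MoM. It rose by 1.25 ± 0.30 on the log2 scale (adjusted p = 0.036). Fdps (chr3:89093588-89101959, minus strand), farnesyl diphosphate synthase, had 7.15 and 6.98 CPM in WT and 11.9 and 9.99 CPM in TG Kupffer cells, and 17.9 and 30.2 CPM in WT and 19.3 and 17.8 CPM in TG MoM. It rose by 1.26 ± 0.22 (adjusted p = 0.0175), and the subsets of both genes stayed apart. Hmgcs1, the synthase that makes HMG-CoA, had 22.3 to 38.3 CPM in Kupffer cells and 29.0 to 53.3 CPM in MoM and did not pass (0.62 ± 0.23, adjusted p = 0.106). Mevalonate kinase, Mvk, had 6.07 to 10.4 CPM and 5.80 to 8.62 CPM (-0.14 ± 0.23, adjusted p = 0.707), and the decarboxylase Mvd had 13.1 to 28.9 CPM and 20.97 to 29.4 CPM (0.36 ± 0.29, adjusted p = 0.411).

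The step into squalene and beyond went both ways. Sqle (chr15:59315077-59331192, plus strand), squalene epoxidase, a control point of the pathway, had 4.92 and 2.76 CPM in WT and 4.54 and 5.46 CPM in TG Kupffer cells, against 14.3 and 21.04 CPM in WT and 24.3 and 13.3 CPM in TG MoM. All MoM libraries were higher, and Sqle rose by 2.06 ± 0.32 on the log2 scale (adjusted p = 0.0153). Fdft1 (chr14:63145150-63179578, minus strand), squalene synthase, was the opposite. It had 132 and 114 CPM in WT and 82.0 and 84.3 CPM in TG Kupffer cells, and 54.5 and 40.4 CPM in WT and 33.3 and 42.6 CPM in TG MoM, and it fell by 1.25 ± 0.16 (adjusted p = 0.0105). Fdft1 shares 774 exonic bases with Ctsb, the gene of cathepsin B on the other strand, and without a stated strand setting the reads there cannot be told apart. Ctsb had 7841 to 11884 CPM in Kupffer cells and 889 to 3975 CPM in MoM (log2 fold change -2.43 ± 0.51, adjusted p = 0.0273), and the CPM of Fdft1 was 0.771% to 4.54% of that of Ctsb in the 8 libraries. Lanosterol synthase, Lss, stood at 7.30 to 9.34 CPM in Kupffer cells and 7.57 to 10.1 CPM in MoM (0.10 ± 0.20, adjusted p = 0.753).

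**Figure D4:**
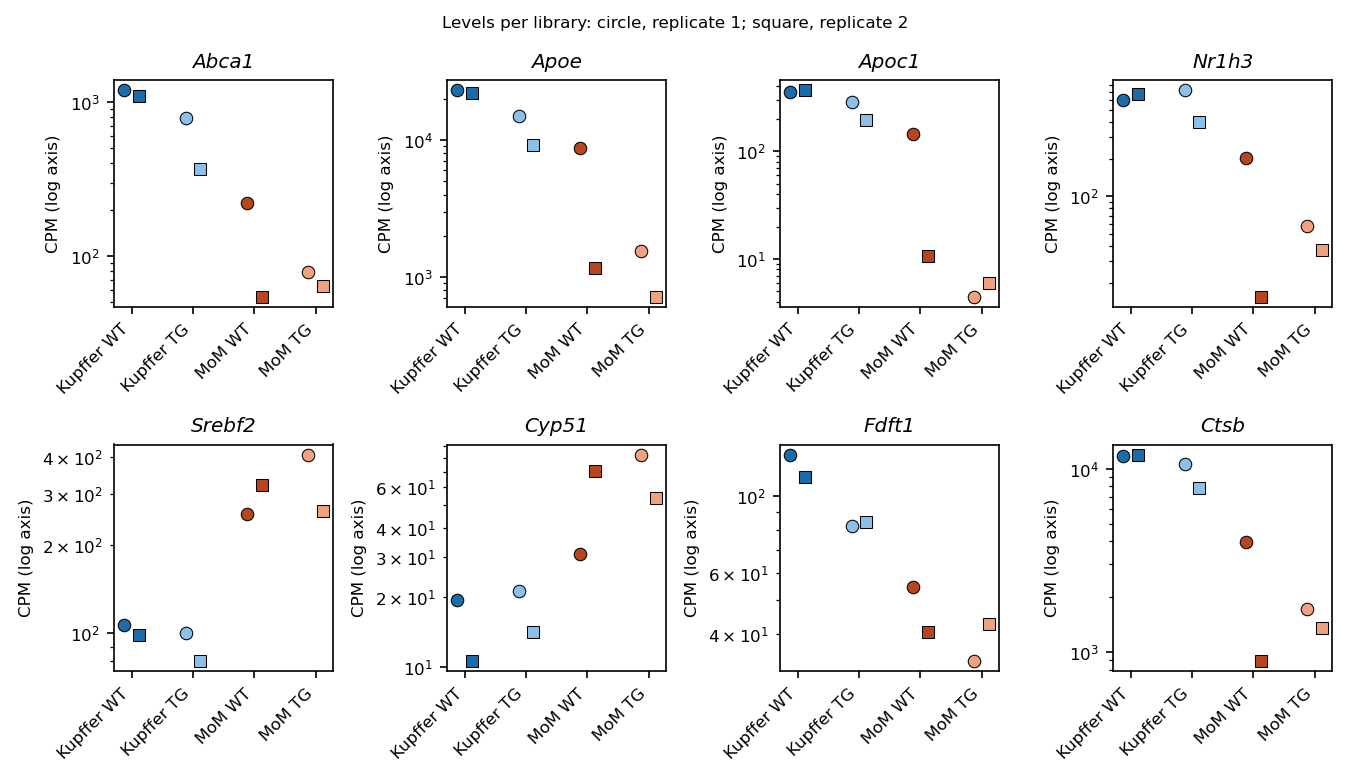
CPM per library on log axes, with circles for replicate 1 and squares for replicate 2, for 6 of the 30 genes, the LXRα gene Nr1h3 and Ctsb, which overlaps Fdft1, by group. Abca1, Apoe, Apoc1 and Nr1h3 are lowest in MoM, with MoM WT replicate 1 between the subsets, Srebf2 and Cyp51 are highest in MoM, and Fdft1 and Ctsb are both lower in MoM.

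Among the enzymes that turn lanosterol into cholesterol, Cyp51 rose and Dhcr7 fell. Cyp51 (chr5:4081145-4104746, minus strand), which removes the first methyl group of lanosterol, had 19.6 and 10.6 CPM in WT and 21.3 and 14.1 CPM in TG Kupffer cells, and 30.8 and 70.2 CPM in WT and 82.7 and 54.0 CPM in TG MoM. The subsets did not overlap, and Cyp51 rose by 1.85 ± 0.37 on the log2 scale (adjusted p = 0.0239). It shares 166 exonic bases with Akap9, which did not pass (0.26 ± 0.19, adjusted p = 0.365). Dhcr7 (chr7:143823145-143848410, plus strand), which converts 7-dehydrocholesterol to cholesterol, had 23.9 and 25.2 CPM in WT and 36.1 and 28.4 CPM in TG Kupffer cells, and 13.5 and 16.2 CPM in WT and 16.8 and 12.6 CPM in TG MoM. It fell by 0.93 ± 0.18 (adjusted p = 0.0217) with no overlap. The remaining 4 enzymes did not pass. Hsd17b7, the 3-keto reductase, had 0.821 to 4.61 CPM in Kupffer cells and 5.65 to 7.21 CPM in MoM, without overlap (1.32 ± 0.37, adjusted p = 0.0522). Nsdhl, a demethylating dehydrogenase, had 10.08 to 11.7 CPM and 12.5 to 17.3 CPM, also without overlap (0.46 ± 0.19, adjusted p = 0.141). Sc5d, the desaturase of lathosterol, had 8.25 to 13.8 CPM and 12.97 to 23.0 CPM (0.79 ± 0.26, adjusted p = 0.0789), and the methyl oxidase Msmo1 had 11.1 to 17.2 CPM and 12.3 to 21.1 CPM (0.37 ± 0.21, adjusted p = 0.251). Leaving out 1 library gave adjusted p from 0.0172 to 0.0782 for Sqle, 0.0152 to 0.105 for Cyp51, 0.0216 to 0.162 for Idi1, 0.00979 to 0.0961 for Fdps, 0.00786 to 0.0626 for Fdft1 and 0.0151 to 0.0932 for Dhcr7. For the LXR targets the ranges were 0.00915 to 0.0791 for Smpdl3a, 0.00491 to 0.102 for Apoc1, 0.0106 to 0.135 for Apoe, 0.0154 to 0.119 for Scd1, 0.025 to 0.147 for Lpl and 0.00941 to 0.144 for Pltp.

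The subset comparison was also read in each genotype alone, with 2 libraries a side. In WT 0 of the 30 genes passed in edgeR's test, against 1.11% of all genes higher and 0.059% lower, while 15 had an unadjusted p below 0.05 and DESeq2 called 6 higher and 8 lower. Without both Kupffer TG replicate 2 and MoM WT replicate 1, WT MoM and TG Kupffer cells keep 1 library each, so that fit is not counted here. Any fit with a library left out leaves its group with 1 library, so counts from such fits are not replicated results. In WT Fdft1 came nearest in edgeR's fit of all libraries (-1.38 ± 0.23, adjusted p = 0.0545). Fdps (1.77 ± 0.31, adjusted p = 0.0608) and Srebf2 (1.49 ± 0.28, adjusted p = 0.0692) followed. In TG Srebf2 alone passed (1.89 ± 0.29, adjusted p = 0.0386), against 1.84% of all genes higher and 0.656% lower, and DESeq2 called 3 of the 30 higher and 9 lower. With 1 library left out, the WT count was 5 for Kupffer TG replicate 1, 6 for Kupffer TG replicate 2, 5 for MoM WT replicate 1 and 0 for each of the others. The TG count was 6 for either MoM WT library, 1 for Kupffer TG replicate 2 and 0 for each of the others. The LXR targets had a median of -1.40 in WT and -1.01 in TG, and the synthesis genes 0.67 and 0.35. Both MoM libraries lay below both Kupffer libraries in 11 LXR targets and 2 synthesis genes in WT, and in 10 and 2 in TG, where all genes gave 29.7% and 23.8%. Both lay above in 0 LXR targets and 11 synthesis genes in WT and in 1 and 10 in TG, where all genes gave 38.5% and 29.1%.

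The LXRα gene Nr1h3 and the partner gene Rxra fell in MoM too, while the LXRβ gene Nr1h2 did not pass. Nr1h3, the gene of LXRα (chr2:91184061-91202834, minus strand), had 603 and 674 CPM in WT and 719 and 402 CPM in TG Kupffer cells, against 206 and 15.5 CPM in WT and 57.4 and 36.6 CPM in TG MoM. It fell in MoM by 3.05 ± 0.77 on the log2 scale (adjusted p = 0.0401). Nr1h2, the gene of LXRβ, had 107 to 132 CPM in Kupffer cells and 106 to 140 CPM in MoM (0.10 ± 0.14, adjusted p = 0.656). Rxra, the retinoid X receptor α that pairs with LXR, had 405 to 956 CPM and 63.5 to 296 CPM and fell by 2.74 ± 0.46 (adjusted p = 0.017). Tbl1xr1, part of the corepressor complex, rose by 1.20 ± 0.22 (adjusted p = 0.0196), and of the 8 tested genes of this list 1 rose and 2 fell, where 10.6% of all genes rose and 8.05% fell. In a list of 6 other LXR targets, 4 of them tested, Mertk, a receptor for apoptotic cells, fell (-2.93 ± 0.61, adjusted p = 0.0263), as did Cd5l, a secreted macrophage protein (-4.25 ± 1.14, adjusted p = 0.0482). Apoc2, an activator of lipoprotein lipase, rose (1.37 ± 0.32, adjusted p = 0.0337), though it shares 646 exonic bases with Gm44805. MoM WT replicate 1 was the highest MoM library for Nr1h3, Rxra, Mertk and Cd5l, and without it their log2 fold changes were -4.48, -3.38, -3.92 and -6.65.

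Other enzymes of cholesterol synthesis were read in the same comparison. Pmvk, phosphomevalonate kinase, had 9.48 to 10.9 CPM and 21.8 to 49.1 CPM in Kupffer cells and MoM and rose by 1.70 ± 0.20 on the log2 scale (adjusted p = 0.00826). Lbr, a sterol reductase that is also a lamin receptor, rose by 0.61 ± 0.14 (adjusted p = 0.0337). Its homologue Tm7sf2, which shares 532 exonic bases with Vps51, fell by 1.27 ± 0.30 (adjusted p = 0.0351).

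Of 17 tested genes that take up, store and release sterol, 7 fell, 1 rose and 9 did not pass, with a median of -0.49, where 8.05% of all genes fell and 10.6% rose. Nceh1, which frees stored cholesteryl ester, had 103 to 185 CPM in Kupffer cells and 24.6 to 43.9 CPM in MoM and fell by 2.14 ± 0.24 on the log2 scale (adjusted p = 0.00786). Soat1, which makes the ester, fell by 1.11 ± 0.21 (adjusted p = 0.0212), and Abca7, a transporter of phospholipids, rose by 1.27 ± 0.20 (adjusted p = 0.0151). The other 5 that fell were Lipa, Msr1, Npc1, Npc2 and Scarb1. Of 11 fatty acid synthesis genes 1 passed, no larger a share than over all genes (10.6% higher and 8.05% lower), the desaturase Fads1, which fell by 1.14 ± 0.19 (adjusted p = 0.0163). Of 7 genes that control SREBP processing 1 passed, also no larger a share, Mbtps2, a protease that cuts SREBP, which fell by 0.60 ± 0.15 (adjusted p = 0.0416) and shares 2867 exonic bases with Yy2. In TG alone Pmvk rose (1.96 ± 0.28, adjusted p = 0.0347), Abca7 rose (1.72 ± 0.28, adjusted p = 0.0433), Nceh1 fell (-2.41 ± 0.34, adjusted p = 0.0347) and Fads1 fell (-1.61 ± 0.27, adjusted p = 0.0443). In WT alone none of these lists had a gene that passed in edgeR's test, and Soat1 (-1.73 ± 0.30, adjusted p = 0.0597), Nceh1 (-1.86 ± 0.34, adjusted p = 0.0657) and Pmvk (1.45 ± 0.28, adjusted p = 0.0692) came nearest.

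Between genotypes no sterol gene passed in Kupffer cells. EdgeR's test called 0 of the 30 genes and 0% of all 15254, while 3 of the 30 and 906 of all genes had an unadjusted p below 0.05. DESeq2 called 216 genes higher and 20 lower in TG, 0 of the 30 among them, and 0 of the 30 are among the 179 genes of the authors' deposited table of TG against WT. That table names no cell type, but its mean normalized counts lay within 1% of those of the 4 Kupffer libraries for 179 genes and of the 4 MoM libraries for 0. The log2 fold change of TG against WT was below 0 in 9 of 13 LXR targets, with a median of -0.44, and above 0 in 15 of 17 synthesis genes, with a median of 0.39; the median of all genes was 0.034. Both TG libraries lay below both WT libraries in 7 LXR targets and 1 synthesis gene, against 17.7% of all genes, and above in 0 and 8, against 16.7%. Markers of other cells differed between the genotypes in the same libraries. Monocyte markers summed to 459 and 305 CPM in TG and 186 and 144 CPM in WT Kupffer cells, with 10 of 10 log2 fold changes above 0 (median 2.35), 9 of 10 with both TG libraries above both WT libraries, and 0 called by edgeR and 3 by DESeq2. Kupffer cell markers summed to 22685 and 11197 CPM in TG and 25737 and 27595 CPM in WT, with 9 of 10 below 0 and 6 of 10 below in both TG libraries. The exception, Marco, adds to the TG sums, at 5492 and 3309 CPM in TG and 687 and 743 CPM in WT. Neutrophil markers summed to 32.2 and 14.5 CPM in TG and 1.94 and 2.20 CPM in WT, and NK cell markers to 11.5 and 162 CPM and to 5.67 and 7.47 CPM. In each of these lists both TG libraries stood on the same side of both WT libraries, and the part of such cells in the sterol genes was not tested. The LXR median moved with either TG library, to -0.11 without Kupffer TG replicate 2 and to -1.05 without Kupffer TG replicate 1. The synthesis median was 0.60 and 0.18 in these fits. Kupffer TG replicate 2 had the highest endothelial (7571 CPM), hepatocyte (932 CPM), T cell (177 CPM), NK cell (162 CPM) and stellate cell (120 CPM) sums of the Kupffer libraries. Their part in these medians was not tested.

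**Figure D5:**
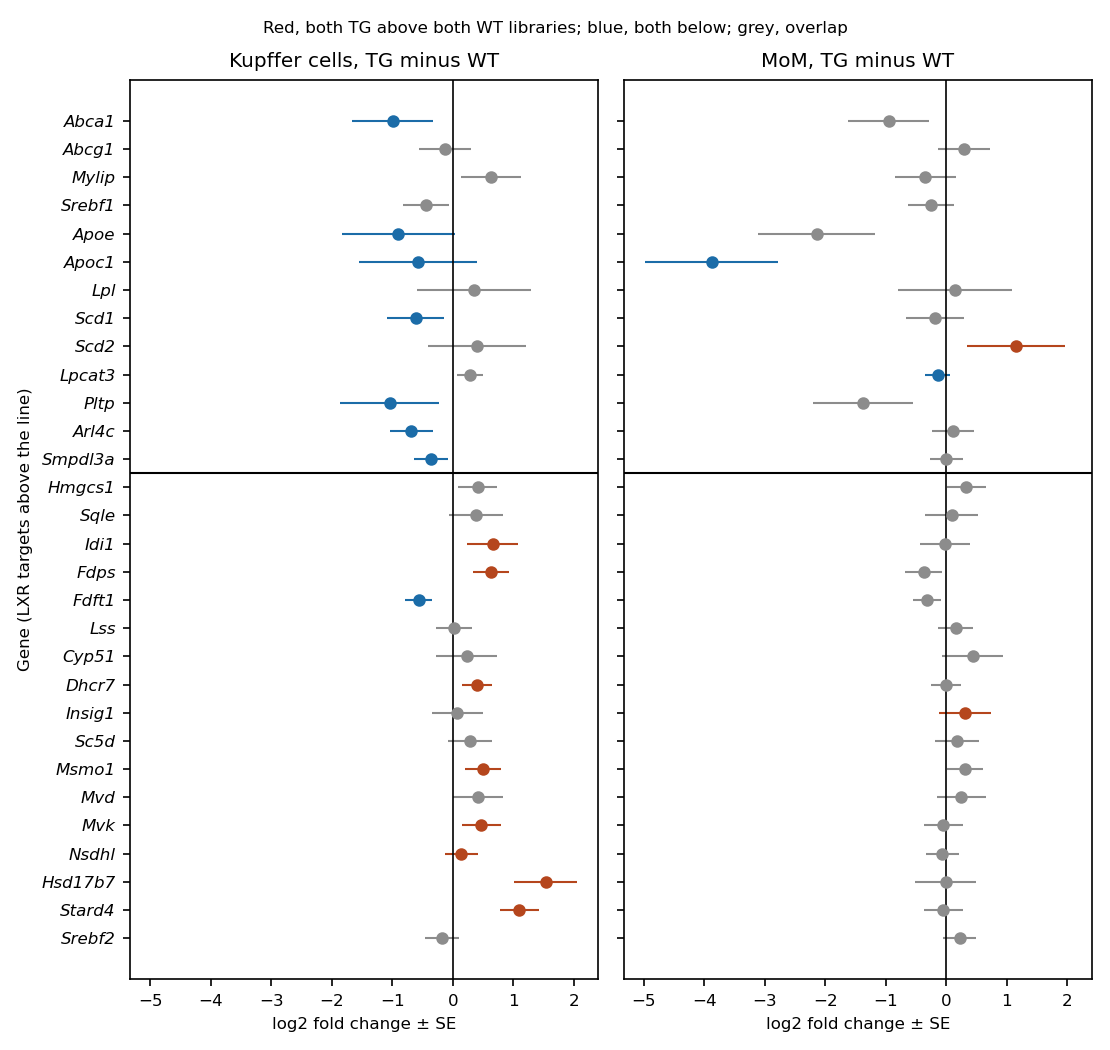
Log2 fold change of TG against WT for each of the 30 genes in Kupffer cells and in MoM, with bars of 1 SE (2 libraries per group); red marks both TG libraries above both WT libraries, blue both below and grey overlap. In Kupffer cells 7 LXR targets are blue and 8 synthesis genes red, in MoM 4 genes are coloured, and no gene passed at an adjusted p below 0.05.

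The 3 sterol genes with an unadjusted p below 0.05 in Kupffer cells belong to the synthesis list. Stard4 had 25.6 and 38.6 CPM in TG and 18.3 and 11.7 CPM in WT Kupffer cells (log2 fold change 1.10 ± 0.32, adjusted p = 0.73). Hsd17b7 had 4.12 and 4.61 CPM in TG and 2.19 and 0.821 CPM in WT (1.53 ± 0.52, adjusted p = 0.73). Fdft1 had 82.0 and 84.3 CPM in TG and 132 and 114 CPM in WT (-0.57 ± 0.23, adjusted p = 0.73). Fdft1 was thus the synthesis gene below WT in both TG libraries, and Ctsb, which overlaps it, had -0.35 ± 0.69 (adjusted p = 0.933). The other synthesis genes with both TG libraries above both WT libraries were Idi1 (0.66 ± 0.42), Fdps (0.63 ± 0.30), Dhcr7 (0.39 ± 0.25), Msmo1 (0.50 ± 0.30), Mvk (0.47 ± 0.33) and Nsdhl (0.14 ± 0.27). The LXR targets below in both TG libraries were Abca1 (-0.99 ± 0.67), Apoe (-0.90 ± 0.93), Apoc1 (-0.57 ± 0.98), Scd1 (-0.62 ± 0.47), Pltp (-1.04 ± 0.82), Arl4c (-0.68 ± 0.35) and Smpdl3a (-0.36 ± 0.28), with adjusted p between 0.73 and 0.919. The remaining 14 genes overlapped between genotypes.

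In MoM edgeR's test of TG against WT called 0 of the 30 genes and 0% of all genes. An unadjusted p below 0.05 was seen for 1 of the 30 and 987 of all genes. That gene was Apoc1, whose 4.48 and 6.04 CPM in TG and 144 and 10.7 CPM in WT gave a log2 fold change of -3.88 ± 1.10 (edgeR, adjusted p = 0.755). DESeq2 called 67 genes higher and 66 lower, with Apoc1 among the lower (adjusted p = 0.00804). Without MoM WT replicate 1 the value of Apoc1 was -1.02, and over the left-out libraries its adjusted p in edgeR's test ran from 0.108 to 1. Apoe had -2.14 ± 0.96 (adjusted p = 0.757) and -0.042 without the same library, and Pltp had -1.37 ± 0.82 (adjusted p = 0.807) and turned to 0.51. The values of Apoe and Pltp rest on MoM WT replicate 1, the MoM library with the highest Kupffer cell markers. That of Apoc1 rests on it in large part, at 144 CPM there against 10.7 CPM in the other WT library. Without this library Apoc1 and Apoe kept their sign and Pltp did not. Both TG libraries lay below both WT libraries for Apoc1 and Lpcat3 (-0.14 ± 0.21), against 20% of all genes, and above for Scd2 (1.15 ± 0.81) and Insig1 (0.31 ± 0.43), against 19.2%. The medians were -0.19 for LXR targets and 0.087 for synthesis genes, and -0.038 for all genes. Without MoM WT replicate 1 the LXR median turned to 0.25.

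Whether the genotype effect differed between subsets was tested as an interaction, in which the change from WT to TG in Kupffer cells is subtracted from that in MoM. EdgeR's test called 0 of the 30 genes and 0% of all genes, with an unadjusted p below 0.05 for 1 of the 30 and 980 of all, and DESeq2 called 18 genes higher and 33 lower with 0 of the 30. That gene was Stard4 (-1.15 ± 0.45, adjusted p = 0.626), which differed between genotypes by 1.10 in Kupffer cells and -0.048 in MoM on the log2 scale. Fdps had -1.01 ± 0.43 (adjusted p = 0.626), Apoc1 -3.31 ± 1.42 (adjusted p = 0.626) and Hsd17b7 -1.54 ± 0.72 (adjusted p = 0.626). The LXR targets had a median of 0.043 and the synthesis genes one of -0.19, against -0.12 for all genes.

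Of the other sterol lists, 0 genes passed in edgeR's test of TG against WT in either subset or of the interaction. In Kupffer cells the smallest unadjusted p of these lists belonged to Cyp27a1, sterol 27-hydroxylase (-0.90 ± 0.31, adjusted p = 0.73), and Lbr (-0.46 ± 0.20, adjusted p = 0.73). In MoM it belonged to Fads1 (-0.88 ± 0.26, adjusted p = 0.755), Abca7 (0.80 ± 0.27, adjusted p = 0.755), Mertk (-2.31 ± 0.84, adjusted p = 0.755) and Soat1 (0.75 ± 0.29, adjusted p = 0.755). Rxra had -1.54 ± 0.63 and Pmvk 0.67 ± 0.27 there, each with an adjusted p of 0.757. In the interaction it was Lbr (0.87 ± 0.29) and Soat1 (1.24 ± 0.42), each with an adjusted p of 0.626.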

How the data were processed

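Polyadenylated RNA of sorted liver macrophages was sequenced, and STAR 2.5.2b with mm10 is named per the submitters' processing notes. No source used here gives the counter or its strand setting. The authors deposited raw counts, 1 whole number per gene symbol and library; 66.8% of counts from 1 to 19 were even. Groups were taken from sample titles. A table the authors deposited for 179 genes holds, per the file headers, a mean of normalized counts (a signal), a test statistic (a score), p-values and a log2 fold change with an error; it was used for gene names and means.

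All 8 libraries were fitted together in edgeR 4.0.16 (R 4.3.3) with 4 groups: filterByExpr (15254 genes kept), TMM, the quasi-likelihood F-test and Benjamini-Hochberg adjustment over all genes, with a call at 0.05. The fit had 4 residual degrees of freedom and a common biological coefficient of variation of 0.507. Means of log2 levels used a pseudocount of 0.5 on CPM. Subset and genotype comparisons share libraries and are not independent. The fit was also run on simulated counts with known fold changes. These held no library that stands apart as MoM WT replicate 1 does, so that run does not cover such libraries. Alternatives were size factors, no filter, DESeq2 1.42.0, a replicate block, only the 4 libraries compared, a pseudocount of 2, each library left out, and both Kupffer TG replicate 2 and MoM WT replicate 1 left out. GENCODE M21 (GRCm38) supplied gene positions and overlaps, and RefSeq the promoter windows.

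The 30 genes and all lists were chosen with earlier results of these data known. All 30 are described; of each other list, up to 3 called genes of smallest p are named, or, for a comparison without any, those of smallest p as values (up to 2 a list, not all printed). Cell markers serve as label checks. Flt3, Clec9a, Xcr1 and Marco were chosen after their values were seen. Soat1, Ctsb, Ctsa, Akap9 and Emg1 are given where they bear on these. For the list of other synthesis enzymes, 1 gene and the counts that include it are not reported here.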

Additional observations from a re-analysis of the deposited data

How the results depend on the processing

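With 2 libraries a group, calls depend on single libraries, and for results that lost or gained a call the cause was not tested. The 15 genes called in the subset comparison were called under size factors, no filter and the replicate block (15 each), DESeq2 (17) and without both Kupffer TG replicate 2 and MoM WT replicate 1 (18); leaving out 1 library gave 0 to 16. In WT the count of 0 became 1 with size factors, 1 with no filter, 14 with DESeq2, 6 with only the 4 libraries, 16 with DESeq2 on these, and 13 without both libraries, where the synthesis median was 0.89; leaving out 1 library gave 0 to 6, and a median of 0.37 to 0.92. In TG the count of 1 became 2 with no filter, 12 with DESeq2, 0 with only the 4 libraries, 15 with DESeq2 on these and 10 without both libraries, and 0 to 6 with 1 library left out. In MoM, TG against WT, DESeq2 called 1 of the 30 on 8 and 1 on 4 libraries; the LXR median turned to 0.22 and the synthesis median to -0.061 without both libraries, and with 1 left out they ran from -0.52 to 0.25 and from -0.10 to 0.31. There Pltp turned to 0.49 and Msmo1 to -0.053 without both libraries, and with 1 left out Pltp ran from -2.16 to 0.51, Msmo1 from -0.022 to 0.74 and Fdps from -0.70 to 0.047. In Kupffer cells the LXR median ran from -1.05 to -0.11. In the interaction the synthesis median was -0.62 without both libraries, and with 1 left out the medians ran from -0.37 to 0.66 (LXR) and from -0.45 to 0.048 (synthesis). The lowest count of any of the 30 genes in a library was 22, for Hsd17b7 in Kupffer WT replicate 2.

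The labels do not say whether libraries with the same replicate number share an animal or a day. Deviations of same-numbered libraries correlated at 0.297 (genotypes, Kupffer), 0.0782 (genotypes, MoM), -0.135 (subsets, WT) and 0.619 (subsets, TG). The replicate block left the counts of the 30 at 0, 0, 0, 1, 15 and 0 in the 6 comparisons. On the 4 WT libraries alone, chosen after seeing the data, the block called 4 of the 30 (1046 genes) as numbered and 11 (2579 genes) with crossed numbers.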
